A study of Mus musculus with 4 samples.

Results

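Genes of 10 chemokines and receptors were followed across the cell types of a mouse model of mammary tumour formation: the ligands Cxcl1, Cxcl2, Cxcl3, Cxcl5, Ccl2, Ccl7 and Ccl20 and the receptors Cxcr2, Ccr2 and Ccr6. They were chosen by symbol and make up 10 of the 27998 genes that the 4 libraries share. Rows for all 10 are present in each library. Single cells were profiled with 3' UMI counting, in which each captured RNA molecule is counted once, so levels are given as CPM, the UMIs of a gene scaled to the same total in each sum of cells, and are compared between cells of 1 gene, not between genes.

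Chemokines are small secreted proteins that direct leukocytes along a gradient. CXCR2 on neutrophils is the receptor for the mouse ligands CXCL1, CXCL2, CXCL3 and CXCL5. CCR2, on inflammatory monocytes, responds to CCL2 and CCL7, and CCR6, on B cells and subsets of T cells, responds to CCL20. In mammary tumours these ligands can come from epithelial cells, fibroblasts and the myeloid cells themselves, and many of them are induced through NF-kappaB.

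The cells came from female mice of mixed genetic background whose Trp53 and Brca1 genes were floxed and which also carried a YFP reporter at the Rosa26 locus (R26Y). All 4 libraries share this genotype and the injection of Ad-K8-Cre into the mammary duct, an adenovirus whose keratin 8 promoter directs Cre to luminal cells. The libraries held YFP+ mammary epithelial cells about 2 weeks after injection (n = 1), YFP+ epithelial cells together with CD45+ leukocytes about 5 months after injection (n = 1), and live DAPI-negative cells of 2 tumours (tumour 1 and tumour 2, n = 2). No library of mice without Cre was part of the comparisons, how many mice went into a library and how YFP+ and CD45+ cells were mixed are not stated, and stage and sort cannot be told apart.

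After filtering, 1301 cells remained at 2 weeks, 4668 at 5 months, 2640 in tumour 1 and 1765 in tumour 2, and the libraries held between 6722044 and 23736366 UMIs. Any 2 libraries shared between 2 and 16 cell barcodes. Cells were divided by Krt8, Krt18, Ptprc and Tyrobp. Keratin cells had at least 3 UMIs of Krt8 and Krt18 together and none of Ptprc, the leukocyte antigen CD45. Tyrobp cells had at least 3 UMIs of Tyrobp, an adaptor protein of myeloid and natural killer cells. The other Ptprc-negative cells passed neither gate. Keratin cells numbered 1133 at 2 weeks, 426 at 5 months, 325 in tumour 1 and 377 in tumour 2. Tyrobp cells numbered 5, 801, 1963 and 766 in that order of libraries, and other Ptprc-negative cells 159, 1636, 205 and 399. All 6 luminal epithelial markers were detected in keratin cells of each library, with summed levels of 12215, 12584, 3705 and 6575 CPM. Tyrobp cells carried macrophage markers in all 3 later libraries (2885, 14110 and 6195 CPM). At 5 months the Ptprc-negative class was not stromal, since 1402 of its 1636 cells had at least 3 UMIs of leukocyte genes, and it is set beside the tumours here only as a level. Trp53, the target of Cre with most UMIs, had 56.2 CPM in keratin cells at 2 weeks, 36.7 at 5 months, 9.86 in tumour 1 and 51.8 in tumour 2, while Brca1 had between 2 and 22 UMIs. Which exons are removed is not stated, so 3' counts of these genes check nothing.

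The 4 neutrophil ligands lie in 1 cluster on chromosome 5 and the 2 monocyte ligands are neighbours on chromosome 11 (GRCm38, GENCODE vM21 annotation, all on the plus strand). Cxcl5 spans chr5:90759360-90761624, Cxcl3 chr5:90786103-90789600, Cxcl1 chr5:90891241-90893115 and Cxcl2 chr5:90903871-90905938, so that 12630 bases separate the starts of Cxcl1 and Cxcl2. Ccl2 spans chr11:82035571-82037453 and Ccl7 chr11:82045712-82047525, with starts 10141 bases apart. Ccl20 lies at chr1:83116766-83119167, Cxcr2 at chr1:74153989-74161246, Ccr2 at chr9:124101950-124113557 and Ccr6 at chr17:8236043-8257141. Although the CXC ligands are paralogs, none of the 451 words of 50 bases in the last 500 bases of any of the 7 ligand transcripts occurred in another gene. The same held for Ccr2 and Ccr6, whereas 20 words of Cxcr2 (4.43%) were shared. Ccl2 overlaps an antisense gene, Gm17268.

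Promoter sequences (RefSeq, GRCm38.p6, 250 bases before to 50 after the start) were at hand for 7 of the 10 genes. They are shown for Cxcl1, Cxcl2 and Cxcl3, the neighbouring CXCR2 ligands. The longest run of letters that the bases before the start have in common in these 3 is GGGAATTTCCC, 11 bases long, which holds an NF-kappaB motif. Searched on both strands, it occurs in 14 of all 32851 promoters (0.0426%) and in none of the other 4 at hand; that these 3 hold it follows from the choice of the run. The windows of 110 bases are chr5:90891144-90891253 for Cxcl1, chr5:90903772-90903881 for Cxcl2 and chr5:90785998-90786107 for Cxcl3, on the plus strand, with the shared run in capitals.
Cxcl1: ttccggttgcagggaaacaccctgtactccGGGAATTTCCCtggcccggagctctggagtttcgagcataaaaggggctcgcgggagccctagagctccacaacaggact
Cxcl2: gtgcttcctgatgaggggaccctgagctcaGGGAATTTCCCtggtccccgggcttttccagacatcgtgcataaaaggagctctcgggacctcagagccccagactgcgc
Cxcl3: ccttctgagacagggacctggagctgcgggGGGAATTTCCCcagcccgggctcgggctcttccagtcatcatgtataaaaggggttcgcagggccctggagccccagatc
Each match reads on the plus strand, and the letters ataaaagg follow 37, 40 and 44 bases after its first base in Cxcl1, Cxcl2 and Cxcl3. A match describes the letters of the window and is not a measured binding site.

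**Figure D1:**
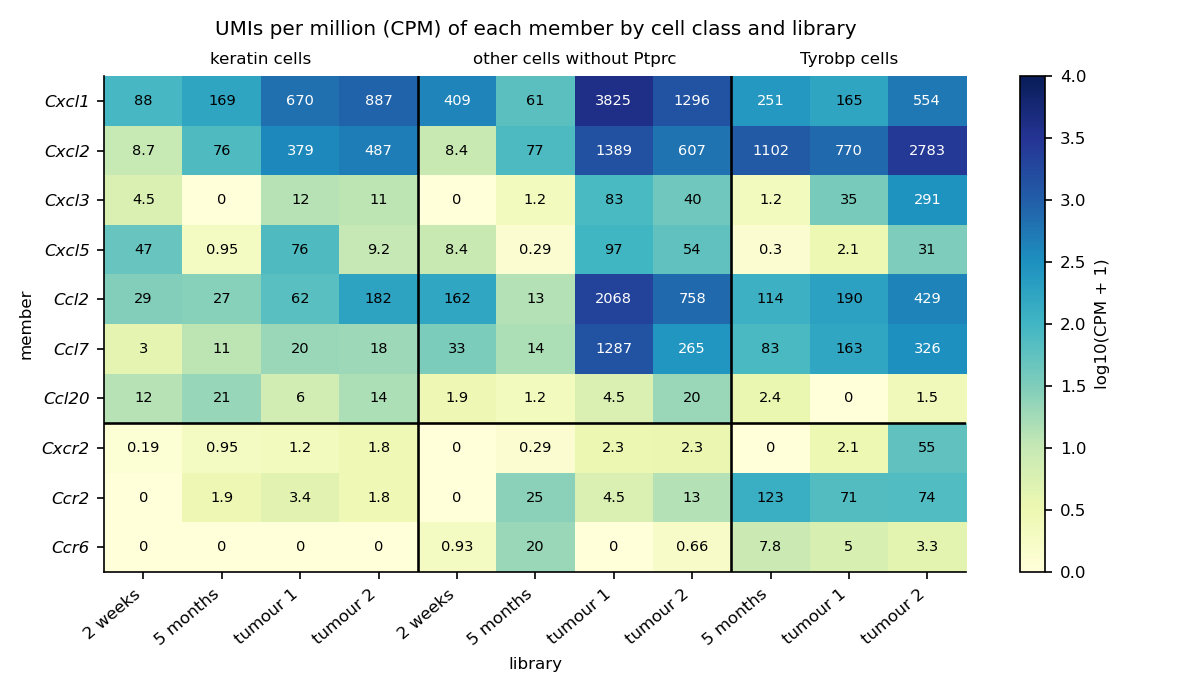
Level of each of the 10 genes (rows, ligands above receptors) in keratin cells, other Ptprc-negative cells and Tyrobp cells of each library (columns), as CPM with colour on a log10(CPM + 1) scale. Ligand levels in keratin and in other Ptprc-negative cells are higher in the tumours for Cxcl1 and Cxcl2, and Ccr2 is highest in Tyrobp cells.

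The first question was whether epithelial cells carried more of the neutrophil ligands in tumours than before them. Cxcl2, a ligand of CXCR2 induced early in inflammation, was higher in keratin cells of the tumours than at 2 weeks. Cxcl1, its neighbour and close paralog, was higher in both tumours by value but just missed the threshold. Cxcl3 and Cxcl5 showed no call. Cxcl2 had 397 and 469 TMM-scaled CPM (the composition-adjusted values of edgeR) in tumours 1 and 2, or 433 ± 51.3 (SD, n = 2), against 8.20 at 2 weeks. Its log2 change was 5.72 (SE 0.70; adjusted p = 0.0214, edgeR quasi-likelihood test, Benjamini-Hochberg over 12096 genes). Cxcl1 had 701 and 855 in tumours 1 and 2, or 778 ± 109 (SD, n = 2), against 83.2 at 2 weeks, a log2 change of 3.22 (SE 0.61; adjusted p = 0.0590 by the same test). Both tumours lay above the 2 weeks library for each of these genes. The makeup of keratin cells differed, with hormone-sensing markers at 3540 CPM at 2 weeks, against 80.3 and 323 CPM in tumours 1 and 2. Progenitor or alveolar markers summed to 1390 CPM at 2 weeks, against 6015 and 8998 CPM in tumours 1 and 2. The part of this makeup in the changes was not tested. The adjusted p of Cxcl1 ran between 4.8e-06 and 0.0764 over 8 other settings and passed 0.05 under 6 of them. That of Cxcl2 ran between 1.8e-16 and 0.0342.

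Of the 10 genes, 8 could be tested in this comparison and 1 was called, as higher, against 1.43% of all genes tested (173 of 12096; 0.744% higher). Cxcl3, another neutrophil ligand, had 11.9 CPM in tumour 1 and 10.7 in tumour 2, against 4.52 at 2 weeks, with a log2 change of 1.41 (edgeR adjusted p = 0.448). Cxcl5, the ligand of this group best known from epithelial and stromal cells, differed between the tumours rather than from 2 weeks, with 76.3 CPM in tumour 1 and 9.23 in tumour 2, against 47.3 at 2 weeks. The 2 weeks value lay between the tumours (log2 change -0.01, edgeR adjusted p = 0.999). The median log2 change of the 8 tested genes was 2.44, or 2.23 with the gene that had no count at 2 weeks set at its least fold, beside 0.02 over all genes tested. The fit has 1 residual degree of freedom, and the lone 2 weeks library is assumed to vary as the tumours do.

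**Figure D2:**
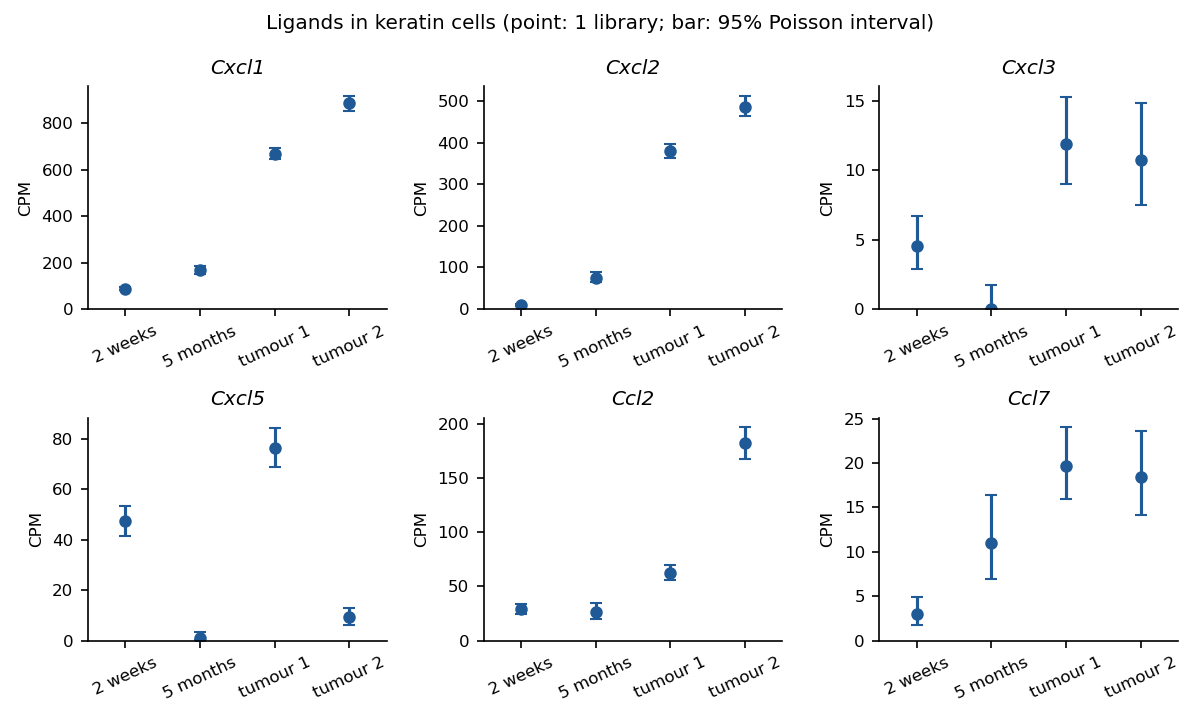
Levels of 6 ligands in keratin cells by library (CPM; point, 1 library; bar, 95% Poisson interval for counting error only). Cxcl1 and Cxcl2 lie higher in both tumours than in either earlier library, whereas Cxcl5 is high at 2 weeks and in tumour 1.

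At equal depth, most keratin cells of each library had no UMI of Cxcl1 and most had none of Cxcl2. At 2 weeks 13.5% of keratin cells had a Cxcl1 UMI, at 5 months 20.2%, in tumour 1 57.2% and in tumour 2 47.7%. Median depth was 4163, 4527, 14035 and 8156 UMIs per keratin cell in those libraries, and with each cell thinned to 2000 UMIs the shares were 7.66%, 13.6%, 27.4% and 27.9%. For Cxcl2 the thinned shares were 0.919%, 3.77%, 19.4% and 23.1%. The top 10 keratin cells held 38.1%, 52.0%, 41.9% and 47.2% of the Cxcl1 UMIs in the 4 libraries, and 95.7%, 82.4%, 56.1% and 71.9% of the Cxcl2 UMIs. Single keratin cells reached 320 and 382 UMIs of Cxcl1 in tumours 1 and 2, against 54 at 2 weeks.

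T cells, which are not known as a main source of these ligands, were taken as the background of free RNA in the same libraries. In cells of a T cell marker gate (1732, 31 and 159 cells at 5 months, in tumour 1 and in tumour 2; median depth 1906.5, 4539 and 3266 UMIs) the thinned share with a Cxcl1 UMI was 0.901%, 3.23% and 8.18%. The keratin cells lay above these in each of the 3 libraries. For Cxcl2 the T gate shares were 4.63%, 9.68% and 20.1%. The keratin shares for Cxcl2 lay above the T gate shares in the tumours, though inside their exact binomial intervals (2.04% to 25.8% in tumour 1, 14.2% to 27.2% in tumour 2), and below at 5 months. The share of keratin cells with Cxcl2 is therefore not read as different from background, and the Cxcl2 level rests on few cells. Summed neutrophil markers in keratin cells were 208 and 617 CPM in tumours 1 and 2, against 0.377 at 2 weeks, where 4 of the 5 markers were at 0. Summed macrophage markers were 140 and 48.8 CPM in tumours 1 and 2, against 1.51 at 2 weeks. Without cells holding a UMI of any of 5 leukocyte genes, the log2 change of Cxcl2 was 5.47 (edgeR adjusted p = 8.3e-05) and that of Cxcl1 3.33 (adjusted p = 0.00355).

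The tumours were also set against 5 months. No gene of the 10 was called, against 0.322% of all genes tested (39 of 12096). Cxcl1 had 701 and 855 TMM-scaled CPM in tumours 1 and 2, against 178 at 5 months, a log2 change of 2.13 (SE 0.57; edgeR adjusted p = 0.295). Cxcl2 had 397 and 469, against 80.0 at 5 months, a log2 change of 2.43 (SE 0.58; edgeR adjusted p = 0.231). Cxcl5 had 76.3 and 9.23 CPM in tumours 1 and 2, against 0.952 at 5 months, where it had 2 UMIs (log2 change 5.42, edgeR adjusted p = 0.386). Its change was 3.10 without tumour 1. DESeq2 called Cxcl1, Cxcl2 and Cxcl5 (adjusted p = 0.0296, 0.00787 and 0.0239). For Cxcl5 the adjusted p ran between 9.5e-06 and 0.460 over 8 other settings of edgeR and DESeq2 and passed 0.05 under 3 of them. Cxcl3 had no UMI in the 426 keratin cells of 5 months, so its tumour level was at least 7.53-fold higher than a floor of 3 counts (edgeR adjusted p = 0.201). The tumour values here are those of the comparison with 2 weeks, so the pair of comparisons is not independent.

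Between the earlier libraries there is 1 sample on each side and no test. Cxcl1 and Cxcl2 were more than 2-fold higher at 5 months than at 2 weeks, with 175 against 84.8 TMM-scaled CPM for Cxcl1 (log2 ratio 1.04) and 78.6 against 8.35 for Cxcl2 (log2 ratio 3.09). Cxcl5 was lower, with 2 UMIs at 5 months against 251 at 2 weeks (log2 ratio -4.55). Ccl2 was at the same level in both (log2 ratio 0.00). The 2-fold rule counted 3 of the 5 genes with enough signal, where it counted 29.4% of all 5869 genes at that level, 14.9% higher and 14.5% lower. With library size alone the ratio of Cxcl1 was 0.93 and no longer counted.

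The kind of keratin cell differed between these libraries. At 2 weeks, hormone-sensing markers led in 906 cells and progenitor or alveolar markers in 151. Cxcl5 had 55.6 CPM in the 906 cells and 11.1 CPM in the 151, while Cxcl1 had 51.9 and 278 CPM and Ccl2 6.81 and 98.8 CPM in the same order. At 5 months, progenitor or alveolar markers led in 373 of the 426 cells, with 181 CPM of Cxcl1. In cells led by the same markers Cxcl1 had 599 CPM in tumour 1 and 790 CPM in tumour 2, so among progenitor-led cells alone the order of the libraries was 181 CPM at 5 months below 278 CPM at 2 weeks, and both below the tumours. Cells are not replicates and these splits carry no test.

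Outside the epithelium, cells with fibroblast genes carried Cxcl1, Ccl2 and Ccl7 together. Ptprc-negative cells with at least 3 UMIs of Dcn, Lum and Pdgfra, genes of the fibroblast matrix and its growth factor receptor, numbered 93 in tumour 1 and 25 in tumour 2. Cells with at least 3 UMIs of endothelial genes or of leukocyte genes were not counted among them. Cxcl1 had 5153 CPM in those of tumour 1 and 6007 in those of tumour 2, with a UMI in 82.8% and 72.0% of the cells. Ccl2, the main attractant of monocytes, had 2542 and 3784 CPM in tumours 1 and 2, with a UMI in 75.3% and 60.0% of cells. Ccl7, a second CCR2 ligand, had 1918 and 3585 CPM in tumours 1 and 2, with a UMI in 75.3% and 80.0% of cells. Earlier libraries held few such cells: 6 at 2 weeks and 23 at 5 months. A single cell held 93 of 128 Cxcl1 UMIs at 2 weeks and 100 of 113 at 5 months, and in tumour 2 the top 10 of the 25 cells held 97.1%. Their Cxcl1 levels were 5614 and 2165 CPM at 2 weeks and 5 months, their Ccl2 levels 965 and 441 CPM.

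Over all other Ptprc-negative cells, Cxcl1 had 409, 60.6, 3825 and 1296 CPM at 2 weeks, at 5 months, in tumour 1 and in tumour 2. Ccl2 had 162, 12.8, 2068 and 758 CPM, and Ccl7 32.6, 14.2, 1287 and 265 CPM in that order. Tumour 1 was highest for all 3. The makeup of the class differed: fibroblast markers summed to 17369 CPM in tumour 1 and 765 CPM in tumour 2. In tumour 2 its largest kind was 210 cells with a UMI of Cdkn2a, which encodes cell cycle inhibitors. These cells had fewer than 3 UMIs of the fibroblast, of the endothelial and of the leukocyte genes. They held Csn3 at 2328 CPM and Dcn at 0.508 CPM. They had 892 CPM of Cxcl1 and 590 of Ccl2, but 91.4 of Cxcl2 and 27.9 of Ccl7. Tumour 1 held 9 cells by the same rule, with another profile: Csn3 at 265 CPM and Dcn at 33.1 CPM. Col1a1 had 1612 CPM in these 9, against 3.05 CPM in the 210 cells of tumour 2. The part of this makeup in the difference between tumours was not tested.

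Pairs of ligands were counted in the same cells. With cells thinned to 2000 UMIs, 62.8% of Cxcl1-positive other Ptprc-negative cells in tumour 1 also had a Ccl2 UMI, against 6.52% of those without Cxcl1. In tumour 2 the shares were 50.4% and 10.1%. A Ccl7 UMI was found in 81.8% of Ccl2-positive cells and 13.3% of the others in tumour 1, and in 24.4% and 4.53% in tumour 2. In Tyrobp cells, Cxcl2 was present in 86.4%, 64.8% and 84.9% of Cxcl1-positive cells at 5 months, in tumour 1 and in tumour 2, against 15.4%, 34.1% and 54.2% of those without. These shares describe cells of 1 library each.

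**Figure D3:**
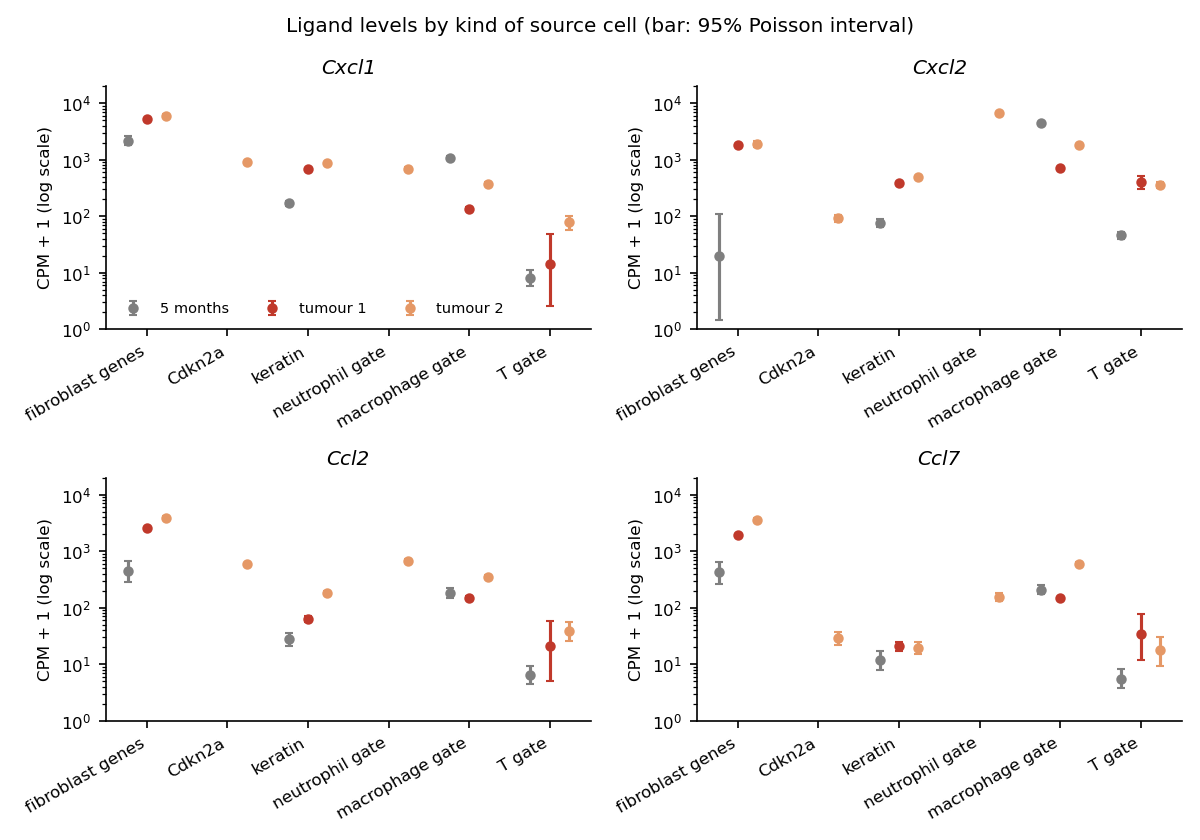
Levels of 4 ligands by kind of cell (CPM + 1 on a log scale; bar, 95% Poisson interval) at 5 months and in the 2 tumours. Neutrophil and macrophage gates are within Tyrobp cells, and kinds with too few cells are left out. Cells with fibroblast genes carry the highest Ccl2 and Ccl7, and the neutrophil gate of tumour 2 the highest Cxcl2.

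At 5 months and in the tumours, Tyrobp cells held most of the Cxcl2 UMIs. Of all Cxcl2 UMIs in kept cells, 86.1% lay in Tyrobp cells at 5 months, 65.4% in tumour 1 and 75.1% in tumour 2. Tyrobp cells were 801 of 4668, 1963 of 2640 and 766 of 1765 kept cells there. At 2 weeks, with 5 Tyrobp cells, 83.6% lay in keratin cells. Per UMI, other Ptprc-negative cells of tumour 1 were above Tyrobp cells (2464 of 1774379 UMIs, against 10824 of 14063944). In tumour 2 they were below (1854 of 3052115, against 14428 of 5183940). Macrophage-gated Tyrobp cells had at least 3 UMIs of C1qa, C1qb and C1qc together. They had 4442 CPM of Cxcl2 at 5 months, 720 in tumour 1 and 1804 in tumour 2, from 130, 1757 and 314 cells. The neutrophil gate (at least 10 UMIs of S100a8 and S100a9 together) held 206 Tyrobp cells in tumour 2, but 5 or fewer in each other library. Cells that also passed another gate are not in these counts, so a low count does not show that neutrophils were absent. In the 206 cells Cxcl2 reached 6699 CPM, with a UMI in 86.4%, and Cxcl3 reached 838 CPM with a UMI in 32.5%. The neutrophil markers summed to 1977 CPM in all Tyrobp cells at 5 months, 1106 in tumour 1 and 29568 in tumour 2.

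No gene of the 10 was called between Tyrobp cells of the tumours and of 5 months, where edgeR called 0 of 11582 genes (0%). At an unadjusted p under 0.05 edgeR had 1080 genes, and DESeq2 called 174. Cxcl1 had 165 and 554 CPM in tumours 1 and 2, against 251 at 5 months (log2 change 0.44, edgeR adjusted p = 0.870). Cxcl2 had 770 and 2783, against 1102 at 5 months (log2 change 0.61, adjusted p = 0.821 in edgeR). For both, the 5 months value lay between the tumours. Ccl2 had 190 and 429 CPM in tumours 1 and 2, against 114 at 5 months (log2 change 1.37, edgeR adjusted p = 0.575). Ccl7 had 163 and 326, against 82.5 at 5 months (log2 change 1.49, edgeR adjusted p = 0.540). Cxcl3 had 34.6 and 291, against 1.20 at 5 months (log2 change 6.97, edgeR adjusted p = 0.485), and it was the gene of the 10 that DESeq2 called.

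Whether keratin cells moved differently from Tyrobp cells between 5 months and tumours was tested as an interaction. No gene of the 10 passed, and 4 of 12631 genes did (0.0317%). Cxcl1 had a difference of changes of 1.87 (SE 0.66) and an unadjusted p of 0.0229 in edgeR, with an adjusted p of 0.496. For Cxcl2 it was 2.04 (SE 0.69; unadjusted p = 0.0188, adjusted p = 0.473, edgeR).

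Keratin and Tyrobp cells of the same library were compared at 5 months, in tumour 1 and in tumour 2, with library as a block. Keratin cells were lower than Tyrobp cells in Cxcl2, Cxcl3, Ccl2, Ccl7, Ccr2 and Ccr6 and higher in Ccl20. Cxcl1 and Cxcl5 were not called. Of 9 genes tested 7 were called, where 29.8% of all genes were (3477 of 11658; 14.1% higher and 15.7% lower). Ccl7 had 11.0, 19.7 and 18.5 CPM in keratin cells of 5 months, tumour 1 and tumour 2, against 82.5, 163 and 326 CPM in Tyrobp cells of the same libraries. Its log2 change was -3.67 (SE 0.36; adjusted p = 0.000798, edgeR). Ccl2 had 26.7, 62.2 and 182 CPM in keratin cells, against 114, 190 and 429 in Tyrobp cells, with a log2 change of -1.92 (SE 0.26; adjusted p = 0.00274, edgeR). In each library the keratin value of both genes was the lower one. Cxcl2 had a log2 change of -2.75 (SE 0.57; adjusted p = 0.0119, edgeR) and Cxcl3 one of -3.46 (adjusted p = 0.0177, edgeR). Without tumour 2 their adjusted p was 0.0546 and 0.0848 in edgeR.

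Cxcl1 had 169, 670 and 887 CPM in keratin cells of 5 months, tumour 1 and tumour 2, against 251, 165 and 554 CPM in Tyrobp cells. Keratin cells were the lower class at 5 months and the higher one in both tumours (log2 change 0.42, SE 0.50, edgeR adjusted p = 0.572), and without tumour 1 the change was -0.24. Cxcl5 had 0.952, 76.3 and 9.23 CPM in keratin cells, against 0.301, 2.06 and 31.3 in Tyrobp cells. Its log2 change was 1.42 (SE 1.86; edgeR adjusted p = 0.617), and -1.57 without tumour 1. Keratin cells were thus the lower class for Cxcl5 in tumour 2 only.

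**Figure D4:**
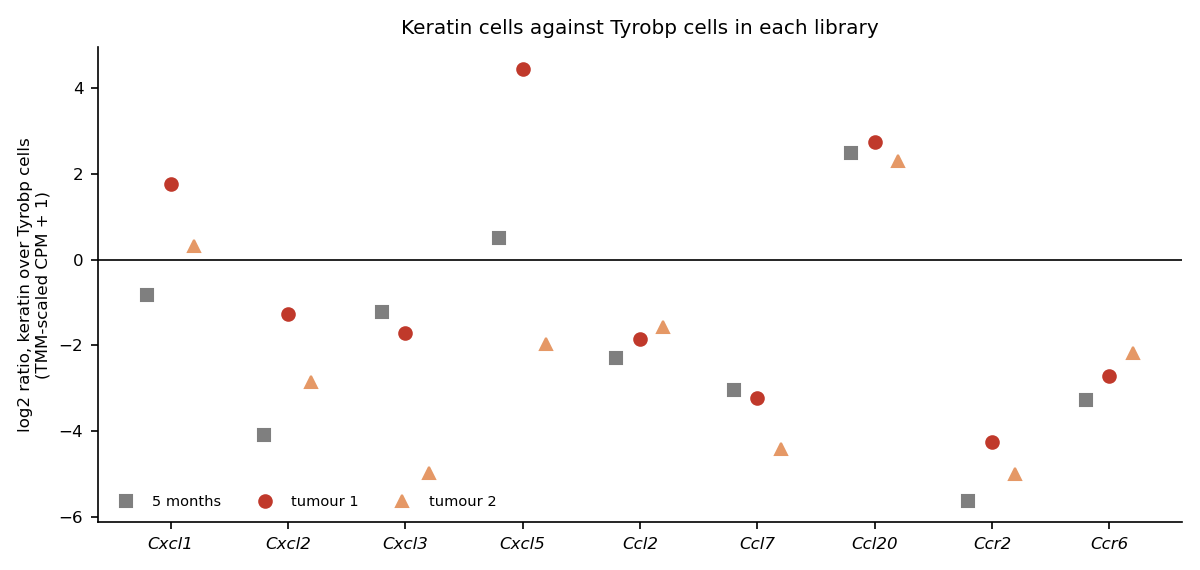
Log2 ratio of keratin cells over Tyrobp cells in each of 3 libraries, from TMM-scaled CPM + 1, for the 9 genes tested. Ccl20 lies above 0 in all 3 libraries and Cxcl2, Cxcl3, Ccl2, Ccl7, Ccr2 and Ccr6 below it, while Cxcl1 and Cxcl5 change sign between libraries.

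Ccl20, which draws CCR6-bearing lymphocytes and dendritic cells to epithelia, was the ligand that keratin cells held above Tyrobp cells. It had 21.0, 6.04 and 14.3 CPM in keratin cells of 5 months, tumour 1 and tumour 2, against 2.41, 0 and 1.54 CPM in Tyrobp cells. The log2 change was 3.60 (SE 0.77; adjusted p = 0.0141, edgeR). Its UMIs lay in 12, 6, 13 and 12 keratin cells at 2 weeks, at 5 months, in tumour 1 and in tumour 2. At 5 months 1 cell held 32 of 44 UMIs. Keratin cells held 97.0%, 75.9%, 66.7% and 39.3% of all Ccl20 UMIs in these libraries. Between the tumours and 2 weeks the log2 change in keratin cells was -0.22 (edgeR adjusted p = 0.920).

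The monocyte ligands in keratin cells were not called between stages, although some other settings called them against 2 weeks. Ccl2 had 65.1 and 175 TMM-scaled CPM in tumours 1 and 2, or 120 ± 77.9 (SD, n = 2), against 27.1 at 2 weeks. The log2 change was 2.15 (SE 0.76; edgeR adjusted p = 0.239), and 1.29 without tumour 2. Ccl7 had 20.6 and 17.8, or 19.2 ± 2.02 (SD, n = 2), against 2.85 at 2 weeks (log2 change 2.74, SE 0.72, edgeR adjusted p = 0.127). Both tumours were above 2 weeks for both genes. Over 8 other settings of edgeR and DESeq2, Ccl7 passed 0.05 under 3 (lowest adjusted p = 0.0256) and Ccl2 under 1 (adjusted p = 0.0299). At 2 weeks 1 cell held 10 of the 16 Ccl7 UMIs, and with the highest doublet scores removed the change was 4.11. Against 5 months the log2 changes were 2.09 for Ccl2 and 0.73 for Ccl7 (edgeR adjusted p = 0.486 and 0.868).

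Tumours 1 and 2 were set side by side in each class, with 1 library on each side and no test. In keratin cells Cxcl5 was higher in tumour 1 (log2 ratio 3.03) and Ccl2 lower (log2 ratio -1.42), where 19.2% of 5715 genes were past the 2-fold rule, 11.2% higher and 8.05% lower. In other Ptprc-negative cells 5 of 6 genes with enough signal were higher in tumour 1, where 29.3% of 6163 genes were past the rule in either direction and 17.4% were higher. Their log2 ratios were 2.39 for Ccl7, 1.68 for Cxcl1, 1.56 for Ccl2, 1.31 for Cxcl2 and 1.14 for Cxcl3. In Tyrobp cells 6 of 8 were lower in tumour 1, where 12.2% of 5165 genes were past the rule and 5.89% were lower. Those ratios were -4.10 for Cxcr2, -3.31 for Cxcl5, -2.93 for Cxcl3, -1.74 for Cxcl2, -1.63 for Cxcl1 and -1.06 for Ccl2. The Tyrobp cells of tumour 1 held 1757 macrophage-gated cells of 1963, and those of tumour 2 held 314 macrophage-gated and 206 neutrophil-gated cells of 766. The part of this makeup in the ratios was not tested.

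Receptor cells were counted next. Cxcr2, the neutrophil receptor, was detected in 1 cell at 2 weeks, 7 at 5 months, 39 in tumour 1 and 167 in tumour 2, or 0.0769%, 0.150%, 1.48% and 9.46% of kept cells. Of the 167 cells, 119 were in the neutrophil gate and 144 were Tyrobp cells. Within neutrophil-gated Tyrobp cells of tumour 2, 56.8% had a UMI, at 233 CPM. Keratin cells, which should lack it, gave the background: 1.85% had a UMI in tumour 1 and 1.33% in tumour 2, at median depths of 14035 and 8156 UMIs. Tyrobp cells had a UMI in 1.43% and 18.8% of cells in tumours 1 and 2, at median depths of 6526 and 6180.5 UMIs. With cells thinned to 2000 UMIs the shares in tumour 1 were 0.308% of keratin and 0.408% of Tyrobp cells. Over all UMIs the levels there were 1.21 CPM in keratin and 2.06 CPM in Tyrobp cells. Of the 39 cells of tumour 1, 15 were in the macrophage gate and 16 in several gates. Neutrophil markers summed to 15028 CPM in these 39, against 758 CPM in all kept cells of tumour 1. In Tyrobp cells Cxcr2 had 2.06 and 55.0 CPM in tumours 1 and 2, against no UMI at 5 months, at least 29.7-fold higher in their mean than a floor of 3 counts (edgeR adjusted p = 0.570). This bound rests on tumour 2: by itself tumour 1 was at least 2.21-fold and tumour 2 at least 57.2-fold above the floor.

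Ccr2, the receptor of inflammatory monocytes, was the most widespread of the 3. It was found in 0 of 1301 cells at 2 weeks, with an exact binomial upper bound of 0.283%, and in 397 cells at 5 months, 585 in tumour 1 and 258 in tumour 2 (8.50%, 22.2% and 14.6%). Its largest gate was T cells at 5 months (135 cells) and macrophages in the tumours (469 and 74 cells). Monocyte-gated Tyrobp cells had a UMI in 28.9% at 5 months, 58.3% in tumour 1 and 57.3% in tumour 2, from 180, 24 and 82 cells with median depths of 2580.5, 4931 and 5424.5 UMIs. Thinned to 2000 UMIs these shares were 24.6%, 37.5% and 31.7%. Macrophage-gated Tyrobp cells had 27.7%, 26.6% and 23.2% at median depths of 4016, 6497 and 6818 UMIs, and 18.3%, 11.2% and 7.64% thinned. The thinned share of the monocyte gate was the higher one in each library, and at 5 months the exact binomial intervals of both overlapped (17.5% to 32.9% and 11.9% to 26.4%). T cell-gated cells had 7.79%, 29.0% and 34.0%, and 8.37%, 16.1% and 22.0% thinned. In keratin cells the share was 0.939%, 4.92% and 1.59%, and 0.251%, 0.615% and 0.265% thinned. Over all Tyrobp cells the thinned share was 18.3%, 11.4% and 11.4% at 5 months, in tumour 1 and in tumour 2, where it was 27.5%, 28.0% and 24.4% before thinning. The log2 change of keratin over Tyrobp cells was -5.39 (SE 0.40; adjusted p = 0.000363, edgeR). Tyrobp cells had 71.0 and 73.9 CPM in tumours 1 and 2, against 123 at 5 months (log2 change -0.83, edgeR adjusted p = 0.540).

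Ccr6, the receptor of CCL20, was found in 1 cell at 2 weeks, 149 at 5 months, 64 in tumour 1 and 21 in tumour 2 (0.0769%, 3.19%, 2.42% and 1.19%). At 5 months 64 of these cells were in the B cell gate and 31 in the T cell gate. B cell markers had a UMI in 57.7% of the 149 cells, against 24.96% of all kept cells there. For T cell markers the shares were 52.3% and 61.1%, the lower one in Ccr6 cells. In tumour 1, 58 of 64 were in the macrophage gate, and all 64 were Tyrobp cells. Most Tyrobp cells of tumour 1 were in that gate, so the 58 do not set Ccr6 cells apart from them. Macrophage markers had a UMI in 98.4% of the 64 cells and 94.5% of all kept cells there. No keratin cell of any library had a UMI of Ccr6. Ccr6 had 7.83, 4.98 and 3.28 CPM in Tyrobp cells of 5 months, tumour 1 and tumour 2, and with a floor of 3 counts in each keratin sum keratin cells were at least 6.71-fold lower (edgeR adjusted p = 0.00838). Cells with UMIs of both Ccr2 and Ccr6 numbered 14 at 5 months, 25 in tumour 1 and 3 in tumour 2. Cells with both Cxcr2 and Ccr2 numbered 6 in tumour 1 and 17 in tumour 2.

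**Figure D5:**
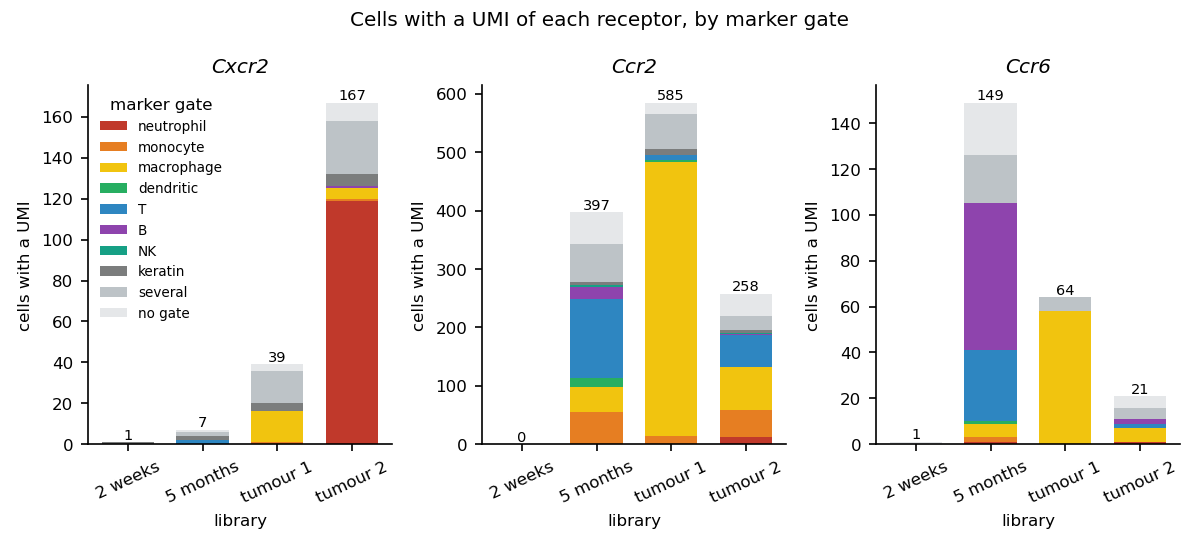
Number of cells with a UMI of Cxcr2, Ccr2 or Ccr6 in each library, split by marker gate (several, more than 1 gate; no gate, none). Cxcr2 cells are mostly neutrophil-gated in tumour 2 and Ccr2 cells mostly macrophage-gated in tumour 1. The largest gate of Ccr6 cells at 5 months is that of B cells.

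Other genes of the pathway were followed in lists of 26 chemotaxis genes and 23 genes of chemokine induction, named inducers here. The second list also holds genes that restrain induction, such as Tnfaip3 and Zc3h12a. In keratin cells of the tumours against 2 weeks, 18 chemotaxis genes were tested, 1 was higher and 1 lower. Of all 12096 genes tested, edgeR called 90 higher (0.744%) and 83 lower. Ccl4, a chemokine of myeloid cells and lymphocytes, had 90 and 68 UMIs in tumours 1 and 2, against none at 2 weeks, at least 36.0-fold higher (edgeR adjusted p = 0.0274). Cxcl15, a chemokine of mucosal epithelium, had no UMI in either tumour, against 642 UMIs at 2 weeks, at least 153-fold lower (edgeR adjusted p = 0.0151). It was also lower than at 5 months, where it had 140 UMIs (at least 94.5-fold; edgeR adjusted p = 0.0228). The median log2 change of the list was 2.76 with genes without counts at their least fold, and 3.74 as fitted. Leukocytes express many genes of this list: Ccl4 had 252 and 601 TMM-scaled CPM in Tyrobp cells of tumours 1 and 2. In keratin cells the summed macrophage markers were 140 and 48.8 CPM in tumours 1 and 2, against 1.51 at 2 weeks, and the neutrophil markers 208 and 617 CPM, against 0.377. The part of leukocyte RNA in these values was not tested. No inducer of 22 tested was called, with a median of 0.44, where 1.43% of all genes tested were called. Between keratin and Tyrobp cells, 2 of 17 chemotaxis genes were higher and 13 lower (median -5.07), where 14.1% of all genes were higher and 15.7% lower. Csf3, the granulocyte growth factor, was higher in keratin cells (log2 change 4.46, edgeR adjusted p = 0.00604). The largest decreases were of Ccl24, Ccl12, Ccr1, Pf4, Il1b and Ccl8, with log2 changes between -7.21 and -6.13. Of 22 inducers 1 was higher and 12 were lower (median -1.07), beside 0.02 over all genes.

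In the 1 against 1 comparison of keratin cells, 4 of 6 chemotaxis genes at the level of the rule were higher at 5 months than at 2 weeks. So were 7 of 15 genes of the inducer list, among them the restraining genes Tnfaip3 and Zc3h12a. None of either list was lower, where 14.9% of all 5869 genes were higher and 14.5% lower. Progenitor or alveolar markers led in 373 of 426 keratin cells at 5 months, and hormone-sensing markers in 906 of 1133 at 2 weeks; the part of this in the ratios was not tested. The genes included Tlr2, a sensor of bacterial lipoproteins (log2 ratio 3.75), Csf3 (3.48), Ccl6 (3.37), Csf1, the macrophage growth factor (2.97), Tnfaip3, an inhibitor of NF-kappaB (2.61), and Zc3h12a, a nuclease that degrades inflammatory mRNA (2.53). Across the 14 sums of cells by class and library, with 9010 genes, the levels of Ptprs, Ccl2, Ppfibp1, Tspan4 and Pros1 were most like those of Cxcl1 (Pearson r between 0.90 and 0.92 on log2(CPM + 1)). Those most like Ccl2 were Itga5, Cxcl1, Ccl7, Ncam1 and Phldb1 (r between 0.89 and 0.95). Sums of 1 library share depth and free RNA, so these values only describe likeness.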

How the data were processed

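The authors deposited UMI counts per gene and cell barcode, 1 matrix for each of the 4 libraries. Libraries were made with the Chromium 3' v2 kit, per the labels' protocols. Reads were processed with Cell Ranger on mm10 (GRCm38), per the submitters' processing notes; its version is not given in the sources used here. Each premalignant gene name lost its genome prefix. Genes listed for 5 months alone (4.59% of its UMIs) were not used.

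A cell needed 500 detected genes and no more than 10% of UMIs from mitochondrial genes, which left out 152 at 2 weeks, 168 at 5 months, 72 in tumour 1 and 15 in tumour 2. Cells in both the keratin and the Tyrobp gate (0, 5, 72 and 38) were counted apart. Marker gates needed 10 UMIs for neutrophils, 3 for macrophages, monocytes and keratin cells, and 2 for dendritic, T and B cells. The gate of natural killer cells needed 1 UMI and no T cell gate. Cells that passed several gates were left out of the levels and shares of single gates and were counted apart among receptor cells. Doublets stayed in the main values: the automatic Scrublet threshold called 5, 0, 1 and 8 and had not worked, so the highest scores at 0.8% per 1000 barcodes (17, 187, 59 and 25) were removed in an alternative.

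Counts were summed per class and library and tested with edgeR 4.0.16 (filterByExpr, TMM, quasi-likelihood F test, Benjamini-Hochberg at 0.05) in R 4.3.3. Only the tumours are replicates, and p-values of the comparisons between stages measure the spread between those samples, which may be technical. For keratin against Tyrobp cells, p-values measure how the difference between the classes varies over the libraries (2 residual degrees of freedom). A lone library is assumed to vary as the tumours do. Comparisons with 1 library a side used a 2-fold rule on TMM-scaled CPM + 1, for genes that reached 20 CPM on 1 side. Library is a block where keratin and Tyrobp cells are compared, because both classes come from the same library. DESeq2 1.42.0 served as an alternative test, scanpy 1.11.5 gave doublet scores and scipy 1.17.1 the intervals. The tests were checked on simulated counts. Intervals are 95% Poisson or exact binomial ones and, like the floor of 3 counts, cover counting error only.

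All 10 genes are named. Of the other pathway genes up to 6 per comparison with the largest log2 change among those past the test or rule are named, and for Cxcl1 and Ccl2 the 5 genes most like them. Examples of called genes beyond these were chosen after their values were seen. The members and lists were chosen with earlier results of these data known. Alternatives were other scaling, no filter on low counts, all barcodes, doublets removed, gates at 10 UMIs, strict classes, DESeq2 and leaving out each replicate. Those for tumour 1 against tumour 2, and the kinds of Ptprc-negative cells, were added after seeing the data.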

Additional observations from a re-analysis of the deposited data

Results flagged for a closer look

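Between tumour 1 and tumour 2 some ligands lay on opposite sides in 2 cell classes, each with 1 library a side, and these differences were not tested. Ccl2 was lower in tumour 1 in keratin cells (log2 ratio -1.42) and higher in other Ptprc-negative cells (1.56), a difference of -2.98. Cxcl5 was higher in tumour 1 in keratin cells (3.03) and lower in Tyrobp cells (-3.31), a difference of 6.34. Other Ptprc-negative cells and Tyrobp cells differed in 4 ligands, which were higher in tumour 1 in the other Ptprc-negative cells and lower in Tyrobp cells. The difference was 3.31 for Cxcl1, 3.05 for Cxcl2, 4.07 for Cxcl3 and 2.63 for Ccl2. With gates at 10 UMIs the log2 ratio of Cxcl3 in other Ptprc-negative cells was -1.35, on the same side as in Tyrobp cells. The makeup of both classes differed between the tumours, and its part in these values was not tested.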

How the results depend on the processing

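Counts of genes past the threshold moved with the processing, while most directions held. Over single genes 551 alternatives kept their side of the threshold or, where no test was possible, lay within 1 SE of the main value. A further 24 passed it newly and 10 lost it. Direction turned in 18 tested or counted values, and 17 untested values moved. Signs that turned among untested values, or among ratios that the 2-fold rule did not count, are not part of the 18. For Cxcl2 between the tumours in keratin cells such a log2 ratio ran between -0.36 and 0.67. The cause was not tested. Keratin cells of tumours against 2 weeks gave 173 genes, and 890 with library size alone (533 higher, 357 lower), 1140 with no filter on low counts, 490 with DESeq2, 267 with all barcodes and 741 with strict classes (478 higher, 263 lower). Of the 10 genes 1 was called, and 2 with size factors of DESeq2, 3 with library size alone, 4 with no filter, 2 with DESeq2, 2 with all barcodes and 3 with strict classes. Against 5 months the 39 genes (3 higher, 36 lower) became 332 with library size alone (136 higher, 196 lower), 497 with no filter, 129 with DESeq2, 22 with doublets removed and 187 with strict classes (56 higher, 131 lower), and the count of the 10 genes of 0 became 3, 4 and 3 with library size alone, no filter and DESeq2. In Tyrobp cells 0 genes became 268 with no filter and 174 with DESeq2, each with 1 of the 10. The interaction count of 4 was 0 with size factors of DESeq2, 27 with library size alone, 246 with no filter (1 of the 10), 58 with DESeq2, 8 with all barcodes, 8 with doublets removed, 33 with gates at 10 and 0 with strict classes. For keratin against Tyrobp cells the 3477 genes ranged between 2090 and 3140 when 1 library was left out (2090 without tumour 1, 2213 without tumour 2), and with no replicate block 2277 genes and 4 of the 10 were called, where 7 were with the block; Ccl20, Cxcl3 and Ccl2 lost their call. Library size alone gave 2386 higher and 1503 lower, against 1647 and 1830. Leaving out 1 library called 5 to 8 of the 10.

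With no filter on low counts the 2-fold rule counted 4237 genes and 6 of the 10 for 5 months against 2 weeks, and 2920, 4705 and 1854 genes between the tumours in keratin, other Ptprc-negative and Tyrobp cells. With library size alone, higher against lower counts were 746 and 1049 for 5 months against 2 weeks, and 512 and 627, 923 and 907, 254 and 358 between the tumours in those 3 classes. Signs turned for Cxcl5 in keratin cells against 2 weeks (0.023 with size factors of DESeq2, 0.019 with DESeq2, 0.26 with all barcodes, 0.13 with gates at 10, 0.27 with strict classes) and for Ccl20 (0.45 with strict classes). They also turned for Ccl20 against 5 months (0.16 with gates at 10, 0.80 with strict classes), and in Tyrobp cells for Cxcl1 (-0.72) and Cxcl2 (-0.26) with gates at 10. Among values with no test, tumour 2 left out gave 0.86 for Cxcl5 in keratin cells against 2 weeks, and -0.66 for Cxcl1 and -0.58 for Cxcl2 in Tyrobp cells, and tumour 1 left out 0.25 for Ccl20 against 2 weeks and, in the interaction, -3.42 for Cxcl5 and -0.0079 for Ccl20. Without tumour 1, keratin over Tyrobp turned to -0.24 for Cxcl1 and -1.57 for Cxcl5; with other libraries left out the values went up to 1.02 for Cxcl1 and 1.40 for Cxcl5, which could not be fitted without tumour 2. The interaction turned for Cxcl5 (-3.56 with doublets removed), Ccl20 (-5.67 with doublets removed, -3.83 with gates at 10, -3.05 with strict classes) and Ccr6 (-0.063 with DESeq2), and Cxcl3 between tumours in other Ptprc-negative cells became -1.35 with gates at 10. Without either tumour the stage comparisons have no residual degree of freedom and gave values with no test. No paired analysis was possible for the stages because no replicate number is shared by 2 of their libraries in a way the labels tie to an animal. Depth limits the receptors: Cxcr2 in keratin cells had between 1 and 6 UMIs per library.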
